A study of Mus musculus with 8 samples.

Results

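ATF4, the CCAAT/enhancer-binding protein and ATF family factors that dimerise with it or share its targets, and a set of stress effectors downstream of it were followed in RNA-seq of thymocytes at double-negative stage 3 (DN3), which carry neither CD4 nor CD8. The 10 genes are Atf4, Atf5, Atf3, Ddit3, Cebpb and Cebpg among the transcription factors, and Trib3, Chac1, Nupr1 and Sesn2 among the effectors. They were found by symbol, and all 10 were present among the 16538 genes of the expression table. They were picked with the genotype difference of these same libraries already known. Their levels in control and mutant cells are therefore given as a description, and no p is given for the difference of any of them.

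The study asked what the loss of SEL1L, an adaptor of the HRD1 ubiquitin ligase in ER-associated degradation, changes in thymocytes at β-selection. DN3 cells were sorted from C57BL/6 mice at 6 weeks of age, 4 control libraries from mice with floxed Sel1l alleles and no Cre (Sel1l-f/f) and 4 Sel1l CKO libraries from mice with the same alleles and the human CD2 promoter-driven iCre (Sel1l-f/f hCD2cre+). Both groups carry the floxed alleles, no group has the Cre alone, and the Cre acts from early T-cell progenitors onward, so deletion begins before the DN3 stage. Values are RPKM, which divides a gene's reads by its length and by the reads counted in all. Libraries are given in the order of replicates 1 to 4 throughout, Sel1l CKO cells are also called mutant, and SE is a standard error.

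ATF4 is a basic leucine zipper (bZIP) transcription factor whose mRNA is translated better when the initiation factor eIF2α is phosphorylated, by PERK when unfolded proteins collect in the ER or by GCN2 when amino acids run short. It binds composite C/EBP-ATF response elements (CARE) as a dimer, often with a C/EBP partner, and switches on genes of amino acid supply together with further factors, among them CHOP, which is encoded by Ddit3. This branch is regulated to a large part at translation, which RNA levels do not report.

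The CARE was looked for in the promoters because the genes share this factor. The letters searched were TGATGNAA on both strands, in windows from 250 bases before to 50 bases after each RefSeq start (GRCm38.p6). Of 32851 windows of 27025 genes, 1304 held it (3.97%). All 10 genes had a window, 11 in all because Atf5 has a pair of starts, and 4 of the 10 held the letters, namely Atf3, Chac1, Nupr1 and Trib3. In each of them the match reads as the reverse complement on the gene's own strand. The stretches below run 5′ to 3′ on that strand, with the match in capitals and its flanks in lower case.

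Atf3 (chr1:191183396-191183483, minus strand, first matched base 110 bases before the start, inside an intron of the longer GENCODE gene): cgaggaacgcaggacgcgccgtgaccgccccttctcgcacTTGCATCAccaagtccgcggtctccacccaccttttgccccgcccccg
Chac1 (chr2:119351009-119351096, plus strand, first matched base 193 bases before the start, outside the annotated gene): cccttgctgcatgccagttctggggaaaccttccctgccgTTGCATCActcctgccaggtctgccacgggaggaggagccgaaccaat
Nupr1 (chr7:126625562-126625591, minus strand, first matched base 110 bases before the start, inside an exon of the longer GENCODE gene): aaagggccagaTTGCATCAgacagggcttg
Trib3 (chr2:152344039-152344046, minus strand, match alone, just after the RefSeq start and before the GENCODE one): TTACATCA

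Atf3, Chac1 and Nupr1 held the same 8 letters, and Trib3 differed from them in 1. The plain CRE (TGACGTCA, in 1.79% of all windows), the UPRE (TGACGTGG, in 0.676%) and the ERSE (in 0.119%) were found in 0 of the 10. A match is a string of letters in a window and no evidence of binding, and the absence of one says nothing about sequence outside the window.

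The totals of reads counted, worked out from the steps between low values, ran from 35191352 to 47778590 per control library and from 32900253 to 50401359 per Sel1l CKO library, the deepest being Sel1l CKO replicate 2. Sel1l itself, the targeted gene, was at 1.83, 1.66, 1.61 and 1.57 RPKM in the control libraries and at 0.918, 0.876, 1.32 and 1.23 RPKM in the mutant libraries. Each mutant library lay below each control library, with replicates 1 and 2 lowest, and the log2 fold change was -0.59 (SE 0.13, limma adjusted p = 0.0327). The call was lost when any control library, or Sel1l CKO replicate 1 or 2, was left out (limma adjusted p from 0.0646 to 0.0981), and also with no minimum RPKM (0.0904) and with libraries rescaled to the same sum (0.0649). Reads on undeleted exons still count. The study describes this Cre as efficient at depleting genes in the stages after early T-cell progenitors. For that it shows quantitative PCR of Sel1l in thymocyte subsets and western blots of SEL1L in sorted DN3 cells. The 10 DN3 marker genes summed to between 360.0 and 383.8 RPKM in control and between 322.1 and 353.6 RPKM in Sel1l CKO, and 0 of the 10 passed the limma test, with 3 at an unadjusted p under 0.05. Their sum was thus lower in every mutant library than in every control library. So were Notch3 (log2 fold change -0.60, limma adjusted p = 0.179) and Cd3e (-0.31, limma adjusted p = 0.0578), while the other DN3 markers overlapped. In 6.22% of the fitted genes replicates 3 and 4 lay above replicates 1 and 2 in both genotypes, and in 6.65% below them in both. Neither the labels nor the study's text names a batch, and differences within each of these pairs are given where they matter.

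Atf4 was at 106, 98.3, 134 and 121 RPKM in the control libraries, and at 198, 211, 218 and 225 RPKM in the mutant libraries. The groups did not overlap, and the 4 Sel1l CKO libraries lay close together. The mean was 115 ± 15.9 RPKM in controls and 213 ± 11.5 RPKM in mutants (SD, n = 4 each), a ratio of 1.86. On the log2 scale, with 0.1 RPKM added to every value, the difference was 0.90 (SE 0.10), 1.0 within replicates 1 and 2 and 0.80 within replicates 3 and 4. Atf4 (ENSMUSG00000042406.8, GRCm38 chromosome 15, 80255184 to 80257541) had the highest level of the 10 genes in both genotypes. In bulk RNA a larger share of cells with the transcript and more transcript per cell cannot be told apart.

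Atf5 (ENSMUSG00000038539.15, chromosome 7, 44812256 to 44816658), which encodes a factor close to ATF4 whose mRNA is also under translational control through upstream reading frames, was at 2.995, 3.55, 2.31 and 2.69 RPKM in the control libraries. In the mutant libraries it was at 14.9, 43.1, 20.4 and 22.3 RPKM. The lowest mutant library was far above the highest control library, and Sel1l CKO replicate 2 stood well above the other mutant libraries. The means were 2.89 ± 0.524 and 25.2 ± 12.4 RPKM (SD, n = 4 each), a ratio of 8.71, and the log2 difference was 2.98 (SE 0.28). Without Sel1l CKO replicate 2 it came to 2.69. Atf5 overlaps Il4i1 on the opposite strand, and the sources used here do not state whether strand was used in counting. Il4i1 was at 0.00798 ± 0.00745 RPKM in controls and 0.0212 ± 0.00232 RPKM in mutants (SD, n = 4 each).

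Ddit3, which encodes the pro-apoptotic factor CHOP, was at 2.04, 2.56, 3.68 and 2.93 RPKM in the control libraries and at 5.68, 6.96, 8.20 and 7.91 RPKM in the mutant libraries. The groups did not overlap, and in both genotypes replicate 1 was the lowest library and replicate 3 the highest. The means were 2.80 ± 0.690 and 7.19 ± 1.14 RPKM (SD, n = 4 each), a ratio of 2.56, with a log2 difference of 1.34 (SE 0.18). The annotation holds a second, shorter Ddit3 gene inside the first on the same strand, and the values fit whole reads on the span of the longer one (ENSMUSG00000025408.15, chromosome 10, 127290774 to 127296288).

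Atf3 (ENSMUSG00000026628.13, chromosome 1, 191170296 to 191218039), an immediate early and stress-induced factor that often represses its targets, went another way. It was at 0.00258, 0, 0.114 and 0.178 RPKM in the control libraries, from 5, 0, 191 and 320 reads, and at 0, 0.00166, 0.00827 and 0.0140 RPKM in the mutant libraries, from 0, 4, 13 and 22 reads. The groups overlapped, because control replicates 1 and 2 were as low as the mutant libraries while control replicates 3 and 4 lay above all of them. Replicates 1 and 2 gave a log2 difference of -0.01, and replicates 3 and 4 one of -1.13. The libraries with 0 reads allow up to 3 reads, which is 0.00132 RPKM in control replicate 2 and 0.00166 RPKM in Sel1l CKO replicate 1. These floors cover counting error only. The length behind the values is the span of 47744 bases with introns, against 2154 bases of exon, which lowers the RPKM of this gene more than that of the others, and on exon length the means were 1.63 RPKM in controls and 0.133 RPKM in mutants.

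Cebpb (ENSMUSG00000056501.3, chromosome 2, 167688915 to 167690418), which encodes a bZIP partner of ATF4 and CHOP, was at 10.1, 8.85, 20.5 and 20.0 RPKM in the control libraries and at 8.04, 13.6, 16.7 and 19.7 RPKM in the mutant libraries. Here the genotypes overlapped over almost their whole range, and control replicates 3 and 4 were again high. The means were 14.9 ± 6.25 and 14.5 ± 4.96 RPKM (SD, n = 4 each), and the log2 difference was -0.01 (SE 0.35). Its sign turned with the processing, between -0.22 and 0.28 over the alternatives. Cebpb overlaps Tmem189 on the opposite strand, which was at 0.8285 ± 0.0739 RPKM in controls and 0.810 ± 0.0626 RPKM in mutants (SD, n = 4 each).

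Cebpg (ENSMUSG00000056216.9, chromosome 7, 35046422 to 35056573), which encodes a C/EBP protein that lacks an activation domain of its own and pairs with ATF4, was at 4.98, 5.65, 5.39 and 5.36 RPKM in the control libraries. It was at 6.58, 8.15, 5.78 and 5.89 RPKM in the mutant libraries. The mutant libraries lay above the control ones, but replicates 3 and 4 only just. The means were 5.35 ± 0.276 and 6.60 ± 1.09 RPKM (SD, n = 4 each), a ratio of 1.24. The log2 difference of 0.29 (SE 0.11) was made up of 0.46 within replicates 1 and 2 and 0.12 within replicates 3 and 4.

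**Figure D1:**
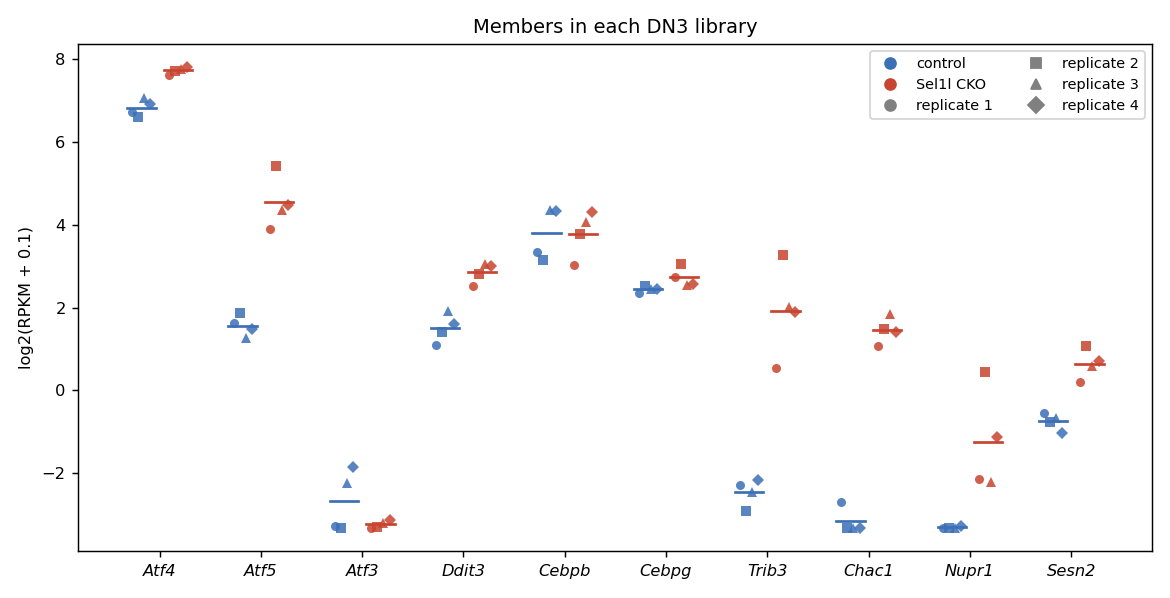
The level of each of the 10 genes in each library, as log2(RPKM + 0.1), with control in blue, Sel1l CKO in red, a marker shape for each replicate number and a line at each group mean. In 8 genes all red points lie above all blue points, and in Atf3 and Cebpb the colours overlap.

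All 4 effectors had a control mean of at most 0.500 RPKM. Trib3 (ENSMUSG00000032715.9, chromosome 2, 152337422 to 152344032), which encodes a pseudokinase that binds ATF4 and CHOP and dampens them, was at 0.104, 0.0317, 0.0817 and 0.124 RPKM in the control libraries and at 1.35, 9.58, 3.92 and 3.62 RPKM in the mutant libraries. The groups were far apart, and the mutant libraries differed among themselves by a factor of 7.10 between replicate 2 and replicate 1. The values come from 28, 10, 19 and 31 control reads and from 338, 3193, 852 and 788 Sel1l CKO reads. Per read counted, Sel1l CKO had 61.5 times as many (exact 95% interval of the pooled counts 49.8 to 76.9, counting error only). The log2 difference of 4.39 (SE 0.48) was 3.94 without Sel1l CKO replicate 2.

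Chac1 (ENSMUSG00000027313.3, chromosome 2, 119351229 to 119354381), which encodes a γ-glutamyl cyclotransferase that breaks down glutathione, was at 0.0546 RPKM in control replicate 1 (7 reads) and at 0 in the other control libraries. It was at 2.01, 2.72, 3.48 and 2.58 RPKM in the mutant libraries, from 240, 432, 361 and 268 reads. The transcript was thus close to undetected in every control library and present in every mutant library at similar levels, with a mean of 2.698 ± 0.605 RPKM (SD, n = 4). Per read counted the ratio was 195 (exact 95% interval 94.2 to 485.0, counting error only). The log2 difference was 4.62 (SE 0.20), and it depends on the value added before the log, being 1.85 with 1 RPKM and 7.38 with 0.01 RPKM.

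Nupr1 (ENSMUSG00000030717.9, chromosome 7, 126623249 to 126630861), which encodes a small stress-induced chromatin-associated protein, had 0, 0, 0 and 1 reads in the control libraries. It had 37, 480, 29 and 90 reads in the mutant libraries, which is 0.128, 1.25, 0.116 and 0.359 RPKM. Each mutant library lay above each control library, and replicate 2 held most of the mutant reads. With 1 read in all in control and 636 in Sel1l CKO, the ratio per read counted was 666, with an exact 95% interval from 119 to 26350 that again covers counting error only and not the spread between libraries. Control libraries with 0 reads allow up to 3, which is 0.00969, 0.00825 and 0.0112 RPKM in replicates 1 to 3.

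Sesn2 (ENSMUSG00000028893.8, chromosome 4, 132492032 to 132510501), which encodes a leucine-binding inhibitor of mTORC1, was at 0.587, 0.494, 0.531 and 0.389 RPKM in the control libraries and at 1.05, 2.01, 1.42 and 1.53 RPKM in the mutant libraries. The groups did not overlap. The means were 0.500 ± 0.0836 and 1.501 ± 0.395 RPKM (SD, n = 4 each), a ratio of 3.0, with a log2 difference of 1.39 (SE 0.18), 1.28 within replicates 1 and 2 and 1.5 within replicates 3 and 4. Its mean over the 8 libraries was only just above the 1 RPKM that a gene needed to enter the fit, and it dropped out of the fit when any Sel1l CKO library was left out.

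All genes with a mean of at least 1 RPKM, 6512 in number, were fitted together with limma, and a gene was called at a Benjamini-Hochberg adjusted p under 0.05, as 344 were (5.28%). Of the 10 genes, 8 entered the fit, 3 of them (Trib3, Chac1 and Sesn2) only through their level in Sel1l CKO, while Atf3 and Nupr1 stayed below the minimum. Those called as higher in Sel1l CKO were 6, where 4.27% of all fitted genes were called in that direction. Those called as lower were 0, where 1.01% of all were. In 8 of the 10 all mutant libraries lay above all control ones, against 9.15% of all fitted genes, and in 0 of the 10 all lay below, against 5.59%. The genes were chosen on this contrast, so these counts describe the choice, are no test of it, and nothing is read from them.

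The spread between the Sel1l CKO libraries differed among the 10 genes. The SD of log2(RPKM + 0.1) over the 4 libraries was 1.23 for Nupr1, 1.12 for Trib3, 0.64 for Atf5 and 0.56 for Cebpb, where the median over all fitted genes was 0.15, and these SDs were larger than those of 99.7%, 99.6%, 98.4% and 97.6% of the fitted genes. It was 0.08 for Atf4, larger than in 16.4% of them, and 0.09 for Atf3, whose levels lay under the 0.1 RPKM added. Ddit3 (0.24), Cebpg (0.22), Chac1 (0.31) and Sesn2 (0.36) lay between. From the lowest to the highest mutant library Atf4 differed by a factor of 1.14, Trib3 by 7.10 and Nupr1 by 10.8.

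The variation had a direction. Sel1l CKO replicate 2 was the highest mutant library for 5 of the 10 genes, namely Atf5, Cebpg, Trib3, Nupr1 and Sesn2, and 28.2% of all fitted genes were highest in that library. Replicate 1 was the lowest for 8 of the 10, against 21.9% of all fitted genes, the others being Cebpg and Nupr1, which were lowest in replicate 3. For Trib3, replicate 1 was 2.99 above the control mean on the log2 scale and replicate 2 was 5.73 above it. Atf4 was 0.80 above in replicate 1 and 0.89 above in replicate 2, and reached 0.98 in replicate 4. Ddit3 and Chac1 were highest in replicate 3, at 1.55 and 5.0 above the control mean. Sel1l was lowest in replicates 1 and 2, which held the lowest and the highest Trib3 level among the mutants. Depth also differs, replicate 2 being the deepest library of all, and its part in these values was not tested.

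**Figure D2:**
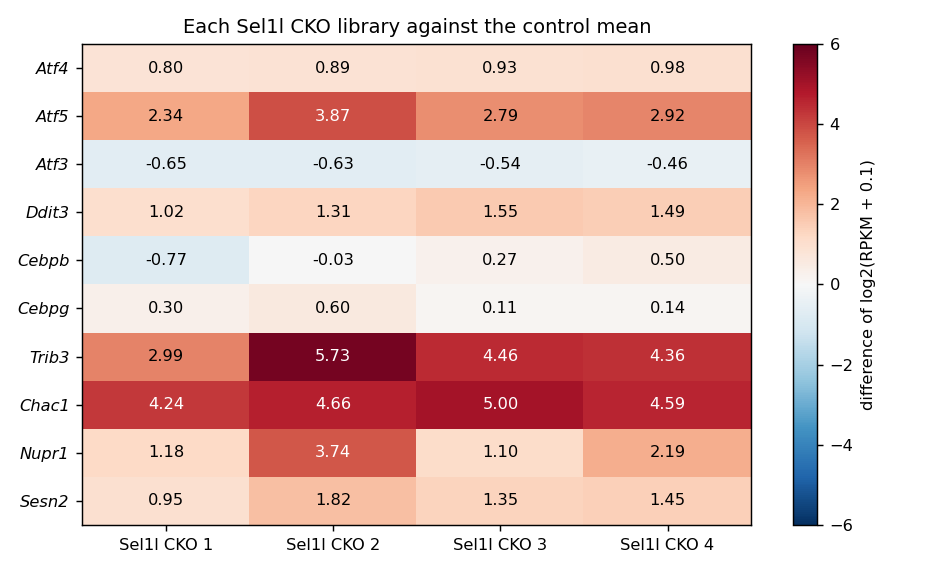
The level of each gene in each Sel1l CKO library minus the control mean, as a difference of log2(RPKM + 0.1), with genes in rows, libraries in columns, and red above and blue below the control mean. Trib3, Atf5 and Nupr1 peak in replicate 2, the Atf4 row is nearly even from 0.80 to 0.98, and Cebpb runs from -0.77 to 0.50.

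The tested genes outside the 10 whose deviations within genotype were most like the mean deviations of the 8 fitted genes over the 8 libraries were Slc3a2 (Pearson r = 0.980), Dennd2d (0.963), Cnot2 (0.958), Slc7a3 (0.948) and Cars (0.946). The mean deviation itself was -0.51, 0.37, 0.07 and 0.07 in the mutant libraries and between -0.15 and 0.11 in control, so these correlations rest mainly on Sel1l CKO replicates 1 and 2. They are the top of a ranking over all fitted genes, the points share library and depth, and no p is given. Slc3a2, the heavy chain of several amino acid transporters, was at 10.8, 20.4, 15.7 and 16.4 RPKM in the mutant libraries, and Cnot2, a subunit of the CCR4-NOT deadenylase, at 1.58, 2.05, 1.79 and 1.88 RPKM. Cnot2 did not pass the test between genotypes (log2 fold change -0.08, limma adjusted p = 0.644), and nor did Dennd2d (0.26, limma adjusted p = 0.413).

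Atf3 and Cebpb were high in control replicates 3 and 4, and so were the immediate early genes, which cells switch on within minutes of a stimulus. The 12 listed immediate early genes summed to 442, 389, 1626 and 1564 RPKM in the control libraries and to 283, 191, 545 and 623 RPKM in the mutant libraries. Of the 11 that entered the fit, 0 were called higher and 1 lower by limma (3 at an unadjusted p under 0.05), namely Btg2 (log2 fold change -1.04, limma adjusted p = 0.0466). The listed heat shock genes are mostly cytosolic, but Hspd1 and Hspe1 among them encode mitochondrial chaperones. All 10 listed heat shock genes together followed the same libraries in control, with sums of 1587, 1368, 2841 and 4335 RPKM. Their sums were even in Sel1l CKO, at 1281, 1352, 1195 and 1192 RPKM, and most of each was Hspa8 (942, 1039, 917 and 923 RPKM). Of their 8 fitted genes, which included the uncalled Hspd1 (limma adjusted p = 0.282) and Hspe1 (limma adjusted p = 0.272), 4 were called lower. Among these were Hspa1a (396.5 ± 486 RPKM in controls and 4.06 ± 2.19 RPKM in mutants, limma adjusted p = 0.0338) and Hspa1b (527 ± 629 and 7.29 ± 3.78 RPKM, limma adjusted p = 0.0333, SD, n = 4 each). Whether the immediate early and heat shock genes share a source with Atf3 or Cebpb in the handling of the libraries was not tested. Of the 10 genes, Atf4, Atf3, Ddit3 and Cebpb, all transcription factors, had replicates 3 and 4 above replicates 1 and 2 in both genotypes, which is 4 of 10 beside the 6.22% of all fitted genes given above, and 0 of 10 had them below. None of the effectors split in this way in both genotypes.

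**Figure D3:**
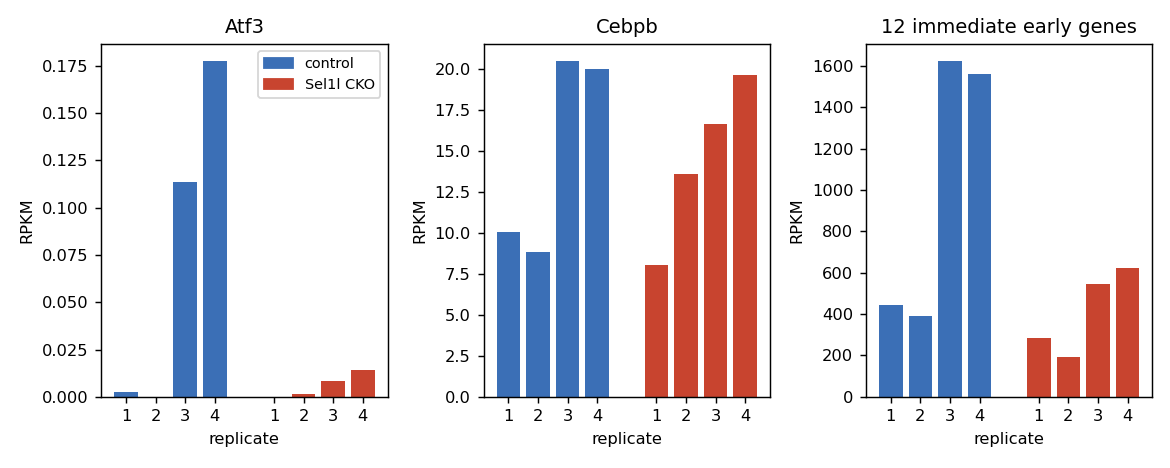
RPKM of Atf3, RPKM of Cebpb and the summed RPKM of 12 immediate early genes in each library, as bars from 0 with control in blue and Sel1l CKO in red. In all 3 panels control replicates 3 and 4 stand above control replicates 1 and 2, and all 4 Sel1l CKO bars are below control replicates 3 and 4. For Cebpb this is narrow, with 19.66 RPKM in Sel1l CKO replicate 4 against 19.98 RPKM in control replicate 4.

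Beyond the 10 genes, 31 other targets of ATF4 were listed, many of them for amino acid synthesis, amino acid transport and tRNA charging and others such as Eif4ebp1 and Ddit4 for translation and growth control, and all were in the table. Of the 20 that entered the fit, 17 were called higher in Sel1l CKO and 0 lower, against 4.27% and 1.01% of all fitted genes, and the median log2 fold change was 0.88 against 0.01 over all fitted genes. This list and those that follow were drawn up with earlier results of these data known. Their counts and p-values therefore describe them and are no independent test. Asns (asparagine synthetase) rose from 0.108 ± 0.0420 to 4.84 ± 3.23 RPKM (SD, n = 4 each; log2 fold change 4.36, SE 0.40, limma adjusted p = 0.000228). Slc7a3, a transporter of cationic amino acids, rose from 0.0961 ± 0.0429 to 2.90 ± 1.76 RPKM (SD, n = 4 each; log2 fold change 3.76, limma adjusted p = 0.000511). Eif4ebp1, an inhibitor of cap-dependent translation, rose from 0.990 ± 0.134 to 5.58 ± 2.42 RPKM (SD, n = 4 each; log2 fold change 2.29, limma adjusted p = 0.000841). Slc7a5, the transporter of large neutral amino acids that pairs with Slc3a2, rose from 6.28 ± 0.235 to 13.8 ± 4.41 RPKM (SD, n = 4 each; log2 fold change 1.08, limma adjusted p = 0.00815).

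Like Trib3 and Chac1, the first 3 of these passed the minimum only through their level in Sel1l CKO. Of the 17 targets whose control mean alone reached 1 RPKM, 14 were called higher and 0 lower by limma, against 3.96% called higher of the 6447 fitted genes of that kind, and their median log2 fold change was 0.79. The fitted targets that were not called were Pck2 (log2 fold change 0.75, limma adjusted p = 0.0656), Slc38a2 (0.04, limma adjusted p = 0.872) and Ddit4 (-0.18, limma adjusted p = 0.563), 3 genes named because they are all that remained. The count of 17 became 10, 9, 11 and 11 when control replicate 1, 2, 3 or 4 was left out. It was 17, 15, 14 and 13 without Sel1l CKO replicate 1, 2, 3 or 4. With libraries rescaled to the same sum it was 13, with a replicate block 14, and on exon length 21 of 25 fitted. Within the mutants, 19 of the 20 were highest in Sel1l CKO replicate 2 and 16 of the 20 lowest in replicate 1, the same libraries in which Trib3 and Atf5 were highest and lowest. Asns was at 1.86, 9.40, 3.65 and 4.47 RPKM in the mutant libraries, with the same highest and lowest library as Trib3.

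Not all of the listed targets and death effectors of CHOP reached the minimum of 1 RPKM on the gene span. Of 9 listed, 4 entered the fit, with a median log2 fold change of -0.35, 1 called higher and 0 lower by limma, and 1 at an unadjusted p under 0.05. The called gene was Wars (3.10 ± 0.125 and 4.30 ± 0.323 RPKM, SD, n = 4 each, log2 fold change 0.46, limma adjusted p = 0.00546), which encodes tryptophanyl-tRNA synthetase and is no death effector. Ppp1r15a, which encodes the GADD34 subunit that returns eIF2α to its unphosphorylated form, was at 32.8, 29.1, 161.6 and 170.7 RPKM in the control libraries and at 25.2, 24.1, 63.6 and 69.8 RPKM in the mutant libraries. Its high and low libraries were those of the immediate early genes, the genotypes overlapped, and the log2 fold change was -0.82 (SE 0.66, limma adjusted p = 0.501, and 0.0248 with a term for replicates 1 and 2 against 3 and 4), -0.32 within replicates 1 and 2 and -1.32 within replicates 3 and 4. Bcl2l11, which encodes the pro-apoptotic BIM, was at a log2 fold change of -0.11 (limma adjusted p = 0.802) and Gadd45a at -0.58 (limma adjusted p = 0.287), these 2 named as the rest of the fitted list. The other 5, Ero1l, Tnfrsf10b, Bbc3, Pmaip1 and Bcl2, were below the minimum with overlapping genotypes. On exon length 8 of the 9 were fitted, and with voom on recovered reads all 9. Each of these settings called 1 of them higher and 0 lower.

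Of 46 other bZIP factors listed, 44 were in the table and 18 entered the fit, with 1 called higher and 0 lower by limma, 6 at an unadjusted p under 0.05 and a median log2 fold change of -0.16. The called gene was Xbp1, the factor made by IRE1 splicing, at 41.7 ± 5.63 RPKM in controls and 67.5 ± 10.4 RPKM in mutants (SD, n = 4 each; log2 fold change 0.69, limma adjusted p = 0.0164). Its call was lost without control replicate 1 (limma adjusted p = 0.0514) and with no minimum RPKM (0.0680). Jun, an AP-1 subunit that can pair with ATF factors, was at 168.5, 133.8, 457.1 and 454.2 RPKM in the control libraries and at 86.4, 54.8, 109.9 and 133.3 RPKM in the mutant libraries. Every mutant library lay below every control library, narrowly so against control replicate 2, and Jun was not called (log2 fold change -1.52, limma adjusted p = 0.0920). Without control replicate 2 it was called (limma adjusted p = 0.0494), as it was with a term for replicates 1 and 2 against 3 and 4 (0.0015). Fos was at 124 ± 105 and 48.2 ± 29.1 RPKM (SD, n = 4 each) with overlapping genotypes (log2 fold change -1.06, limma adjusted p = 0.434, and 0.0105 with that term). Atf6, the membrane-tethered factor of the third branch, was below the minimum at 0.136 ± 0.0115 RPKM in controls and 0.264 ± 0.0542 RPKM in mutants (SD, n = 4 each; two-sided exact permutation p = 0.0286, the lowest value possible with 4 libraries a group). In the 3 alternatives that fitted it, Atf6 was called higher, with a limma adjusted p of 0.0436 with no minimum RPKM, 0.00788 with voom on recovered reads and 0.00575 on exon length.

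**Figure D4:**
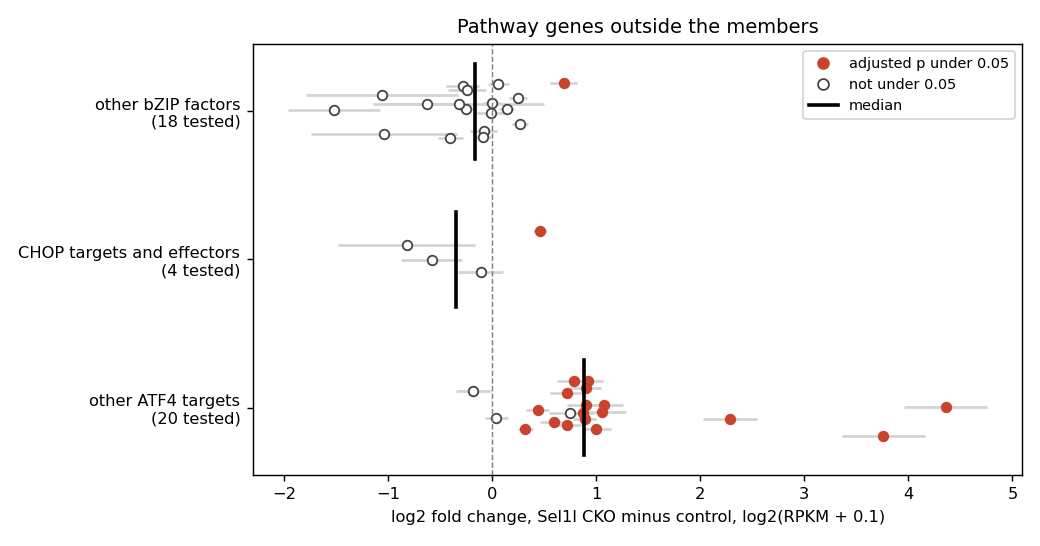
Log2 fold change between Sel1l CKO and control, on log2(RPKM + 0.1), of the fitted genes outside the 10, with 1 point per gene, its standard error as a grey bar, filled points for genes called and a black line at the median of each list. Of the ATF4 targets 17 of 20 points are filled, against 1 of 4 for the CHOP list and 1 of 18 for the other bZIP factors.

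None of the closest relatives of the effectors passed a test. Trib1 was at 6.77 ± 5.06 RPKM in controls and 7.64 ± 4.50 RPKM in mutants (SD, n = 4 each; log2 fold change 0.27, SE 0.60, limma adjusted p = 0.831), with replicates 3 and 4 high in both genotypes. The others were below the minimum, and the exact permutation test, two-sided, gave p = 0.629 for Trib2 (means of 0.685 RPKM in controls and 0.640 RPKM in mutants), p = 0.171 for Chac2 (0.167 and 0.117 RPKM) and p = 0.229 for Nupr1l (0.0690 and 0.0340 RPKM). For the sestrins the same exact permutation test gave p = 0.171 for Sesn1 (0.401 and 0.356 RPKM) and p = 0.543 for Sesn3 (0.488 and 0.464 RPKM). With Atf6 these are 6 permutation tests, and after Benjamini-Hochberg adjustment over the 6 the exact permutation p was 0.172 for Atf6 and between 0.343 and 0.629 for the relatives. A gene that alone holds the lowest possible p, as Atf6 does, cannot pass after this adjustment. In the alternatives that fitted these relatives, the limma adjusted p ran from 0.297 (Nupr1l, voom on recovered reads) to 0.825 (Sesn3, no minimum RPKM). Chac1 and Sesn2 each stood above their control range in every mutant library, while the genotypes of Chac2, Sesn1 and Sesn3 overlapped.

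Markers of other cells were low in both genotypes. The 7 B and plasma cell genes summed to between 0.0906 and 0.339 RPKM in control and between 0.107 and 0.152 RPKM in Sel1l CKO. The 6 myeloid and dendritic genes in the table summed to between 3.51 and 6.21 RPKM in control and between 1.93 and 3.97 RPKM in Sel1l CKO. The 4 epithelial and stromal genes in the table summed to between 3.15 and 4.96 RPKM and between 1.93 and 2.28 RPKM in the same order, with Epcam called lower (log2 fold change -0.95, limma adjusted p = 0.00273). In neither list was a marker at 0 in all libraries. The epithelial sum was lower in every mutant library than in every control library, and most of it was Epcam (means of 4.025 RPKM in controls and 2.012 RPKM in mutants). Krt8 (0.0470 and 0.0498 RPKM) and Foxn1 (0.000915 and 0.000947 RPKM) were not lower in mutants, while Col1a1 was (0.0549 and 0.0217 RPKM). The myeloid sums overlapped. Among the myeloid genes, Lyz2 was lower in every mutant library than in every control library (means of 2.26 RPKM in controls and 1.25 RPKM in mutants). It was not called (log2 fold change -0.86, limma adjusted p = 0.0611). Itgax, near 0, was lower in the same way, while Cd68, Itgam, Csf1r and S100a8 overlapped. The part of the epithelial or the myeloid list in the results was not tested. The 5 CD4, CD8 and mature T-cell genes summed to between 1.47 and 3.32 RPKM in control and between 1.83 and 3.75 RPKM in Sel1l CKO. Erythroid genes, 2 in the table, summed to 0 to 0.651 RPKM in control and 0.2505 to 1.59 RPKM in Sel1l CKO, highest in replicate 1. For the 3 NK and γδ genes in the table the sums were 1.47 to 1.70 and 1.61 to 2.27 RPKM. For the 5 early progenitor genes they were 0.354 to 0.415 and 0.203 to 0.384 RPKM.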

How the data were processed

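The authors sorted DN3 thymocytes into TRIzol LS, prepared stranded mRNA libraries, aligned paired-end reads to GRCm38 with STAR (2.5.2b), took counts per protein-coding gene with HTSeq (2.7, per the labels) and deposited RPKM values, 1 column for each library. Their own genotype test used DESeq2 on counts, which were not used here. Libraries were grouped by the labelled genotype, and the study treats them as independent biological replicates.

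Divided by the worth of 1 read, the values came out whole on the gene span of GENCODE M21 for 11783 of 15517 genes (75.9%, within 0.02 reads in every library), against 3.3% on exon length. For 3708 further genes the length was solved from the values, and 26 had no solution. The recovered reads make up between 94.8% and 98.1% of each library total. RPKM on the whole span lowers long genes.

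Values were fitted as log2(RPKM + 0.1) in R 4.3.3 with limma 3.58.1 (mean-variance trend, genotype only, mean RPKM of at least 1, two-sided, Benjamini-Hochberg over all 6512 genes), after a check on simulated data. A fold change on this scale understates the change of low genes. Permutation tests enumerate all assignments of the 8 libraries. Read ratios have exact binomial intervals. Promoters are from RefSeq (GRCm38.p6), and ERSE was searched by its consensus.

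The 10 genes, the lists and the tests were chosen with earlier results of these data known. Named are the 10, Sel1l, the paralogues of the effectors, at most 4 called genes of each list by size of change, the partners Xbp1, Atf6, Jun, Fos, Ppp1r15a and Asns, and the 5 genes most like the 10 over the libraries. Genes named outside this rule are the uncalled or unfitted rest of the ATF4 and CHOP lists, Btg2, Il4i1 and Tmem189. Epcam, Krt8, Foxn1, Col1a1, Hspa8, Hspa1a, Hspa1b, Hspd1 and Hspe1 are further ones. So are Notch3, Cd3e, Lyz2, Itgax, Cd68, Itgam, Csf1r and S100a8. All genes outside this rule were named after their values were seen. Alternatives were pseudocounts of 1 and 0.01, no filter, a mean RPKM of at least 5, rescaled, median-of-ratios and quantile-normalized values, no trend, array weights, a replicate block, limma voom on recovered reads, and leaving out each library. RPKM on exon length and a term for replicates 1 and 2 against 3 and 4 were added after seeing the data. In the table, 2 listed bZIP factors and 5 listed cell markers had no matching name.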

Additional observations from a re-analysis of the deposited data

Results flagged for a closer look

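In 2 of the 62 groups of 4 libraries compared, the highest or lowest library stood apart from the others by Dixon's criterion, where chance alone gives about 3.1. Chac1 was at 0.0546 RPKM (7 reads) in control replicate 1 and at 0 in the other control libraries. Nupr1 was at 0.00348 RPKM (1 read) in control replicate 4 and at 0 in the other control libraries. Beside libraries that are all at 0, any value above 0 gives a gap over the range of 1.0. Both flags were therefore fixed by the zeros, and the chance figure does not cover such ties. Both values lie far below those of every Sel1l CKO library for the same gene.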

How the results depend on the processing

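Low depth limits Nupr1, Atf3 and the control levels of Chac1 and Trib3, whose log2 differences rest on few reads or on the value added before the log, ranging over the alternatives from 2.05 to 7.22, from -1.77 to -0.57, from 1.85 to 8.39 and from 2.17 to 5.66. Those of Atf4 (0.81 to 0.98), Atf5 (2.65 to 3.20), Ddit3 (1.11 to 1.53), Cebpg (0.17 to 0.35) and Sesn2 (0.73 to 1.57) kept their sign under every alternative in which they were fitted. Genes called numbered 344 (278 higher and 66 lower), 218 at a mean RPKM of at least 5, 640 with array weights (458 higher and 182 lower), 525 with a term for replicates 1 and 2 against 3 and 4 (343 higher and 182 lower), and 244 to 314 with 1 library left out. At a mean RPKM of at least 5, fewer genes were fitted and 2 of the 10 genes, 10 other ATF4 targets and 0 CHOP targets were called. With 1 library left out these counts ran from 5 to 6, from 9 to 17 and from 1 to 1, and that of other bZIP factors from 0 to 2. With no filter, 11 other ATF4 targets and 2 other bZIP factors were called, the latter being 4 with array weights, 4 with voom, 3 on exon length and 5 with the term for replicate pairs, which also gave 2 CHOP targets. The causes were not tested.

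Replicate numbers did not pair the libraries 1 to 1. Deviations from the group means of control and Sel1l CKO libraries with the same number correlated at 0.162, 0.097, 0.445 and 0.005 in replicates 1 to 4, and not every library correlated best with its own number. Control replicates 1 and 2 correlated at 0.097 to 0.292 with Sel1l CKO replicates 1 and 2, and at -0.25 to -0.22 with replicates 3 and 4. For control replicate 3 these were -0.376 and -0.359, and 0.445 and 0.404. For control replicate 4 all lay between -0.083 and 0.087. A fit with the replicate number as a block called 317 genes, 6 of the 10 genes and 4 other bZIP factors (1 higher and 3 lower), among them Jun (limma adjusted p = 0.00313) and Fos (0.0251), while Sel1l was not called (0.0601).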
